A study of Mus musculus with 2 samples.

Results

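The nuclear oxidative phosphorylation (OXPHOS) genes are the genes of the nuclear genome that encode subunits of respiratory complexes I, III and IV and of ATP synthase (complex V), together with a group of complex I assembly factors. They were chosen by name, as all entries of the deposited gene list whose symbol begins with Ndufa, Ndufb, Ndufc, Ndufs, Ndufv, Uqcr, Cox4i, Cox5, Cox6, Cox7, Cox8 or Atp5 and that had at least 10 unique molecular identifiers (UMIs, 1 per captured mRNA molecule) summed over both libraries. Of 28692 genes, 88 carried such a name and 87 passed the minimum. The gene left out is Cox8c, a complex IV isoform known from testis, with 0 UMIs. The members comprise 36 subunits of complex I, 7 complex I assembly factors, 8 subunits of complex III, 19 genes grouped with complex IV, 15 subunits of complex V, and 2 genes, Atp5s and Atp5sl, that share the prefix without encoding a subunit of the finished enzyme. The group of complex IV includes the supercomplex factor Cox7a2l and Ndufa4l2, a paralog of Ndufa4, which are counted with its subunits below.

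Complex I takes electrons from NADH, complex III passes them from ubiquinol to cytochrome c, and complex IV passes them to oxygen, and the protons pumped on the way drive ATP synthase. The mitochondrial genome encodes the hydrophobic core subunits of these enzymes and the nucleus encodes the others, so that every one of them is built from products of both genomes. In the brain this pathway supplies most of the ATP that neurons spend on ion gradients and synaptic release, and several complex IV subunits exist as isoforms tied to particular tissues.

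The data are 2 droplet single-cell RNA libraries (10x Chromium, chemistry v2) of the ventral parafacial region, a brainstem area that takes part in the control of breathing. Each library was made from 8 pooled C57BL6/J mice, 4 of each sex, at an age of 10 days. The untreated library is batch 1 (condition WT), and the other library, from mice of the same strain injected with 4OH-tamoxifen at 0.2 mg per day for 3 days, is batch 2. Since each condition has a single library, conditions were not tested against each other, and treatment and batch cannot be told apart. The libraries shared 40 cell barcodes, 32 of them after the cell filters.

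Cells were assigned to classes by markers, none of which is a member, such as Snap25 and Syt1 for neurons or Pdgfrb and Rgs5 for mural cells (pericytes and smooth muscle cells of vessels). The numbers of cells in the untreated and the tamoxifen library were 722 and 1512 astrocytes, 288 and 537 oligodendrocyte precursors (OPC), 307 and 870 differentiating oligodendrocytes, 333 and 941 oligodendrocytes, 344 and 532 microglia, 173 and 222 endothelial cells and 141 and 668 neurons. Mural cells were fewer, with 69 and 47. Among the neurons, 65 and 274 were inhibitory, 32 and 111 glutamatergic and 19 and 136 cholinergic, and the others carried the markers of more than 1 of these classes or of none. Fibroblasts (27 and 21) and border macrophages (2 and 6) were too few to be compared, and 933 and 3202 cells stayed without a class. In each of the 8 classes used, 9 or 10 of the 10 markers were at least 2-fold higher than in the other cells in both libraries, which the assignment by these markers brings about. Among the 10 genes highest in a class against the other cells, its own markers numbered from 1 in neurons and 2 in differentiating oligodendrocytes to 7 in OPC and mural cells of the tamoxifen library, and the markers of another class 1 in differentiating oligodendrocytes (Tnr) and 0 elsewhere.

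Summed over members, nuclear OXPHOS mRNA took a few percent of all UMIs in every class, and the classes differed less in it than in the mitochondrial mRNA that goes with it. Inhibitory neurons and mural cells had the highest shares of all UMIs and cholinergic neurons, microglia and oligodendrocytes the lowest, in both libraries. The share of inhibitory neurons was 5.22% (5.16 to 5.29) in the untreated and 5.01% (4.97 to 5.05) in the tamoxifen library. Brackets after such a share give exact Poisson 95% intervals, which cover counting error only. Mural cells had 4.60% and 5.07%, all neurons 4.50% and 4.07%, astrocytes 4.26% and 4.54% and glutamatergic neurons 4.19% and 4.06%. At the lower end, endothelial cells had 3.11% and 3.50%, oligodendrocytes 2.85% and 3.09%, microglia 2.67% and 3.42% and cholinergic neurons 2.54% and 2.96%. Along the oligodendrocyte lineage the share declined in both libraries, from 3.95% and 4.50% in OPC over 3.76% and 4.08% in differentiating cells to the values of oligodendrocytes given above. The order depends on the total: with UMIs of mt- genes and of the nuclear-retained RNA Malat1 left out, astrocytes had 5.48% and 5.78%, mural cells 5.36% and 5.89%, inhibitory neurons 6.04% and 5.70%, all neurons 5.23% and 4.69%, oligodendrocytes 3.50% and 3.81%, endothelial cells 3.44% and 3.86% and microglia 2.89% and 3.72%.

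The 13 protein-coding mitochondrial (mt-) genes followed another order. Astrocytes had 12.8% and 11.9% of their UMIs from mt- genes and neurons 11.2% and 10.6%, against 5.54% and 5.09% in endothelial cells and 5.82% and 6.31% in microglia. For each nuclear OXPHOS UMI there were 3.01 and 2.62 mt- UMIs in astrocytes, 2.49 and 2.61 in neurons, 2.74 and 1.96 in oligodendrocytes and 1.57 and 1.45 in differentiating oligodendrocytes. Mural cells thus joined a nuclear share at the top of the range to an mt- share in its middle, and astrocytes had the highest mt- share of UMIs of the non-neuronal classes. Cells differ in size as well as in shares: nuclear OXPHOS UMIs per cell came to 307 and 187 in neurons, 285 and 201 in oligodendrocytes and 121 and 93.7 in astrocytes, at a median depth of 6487 and 3820.5, 10629 and 6608, and 2650.0 and 1971 UMIs.

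**Figure D1:**
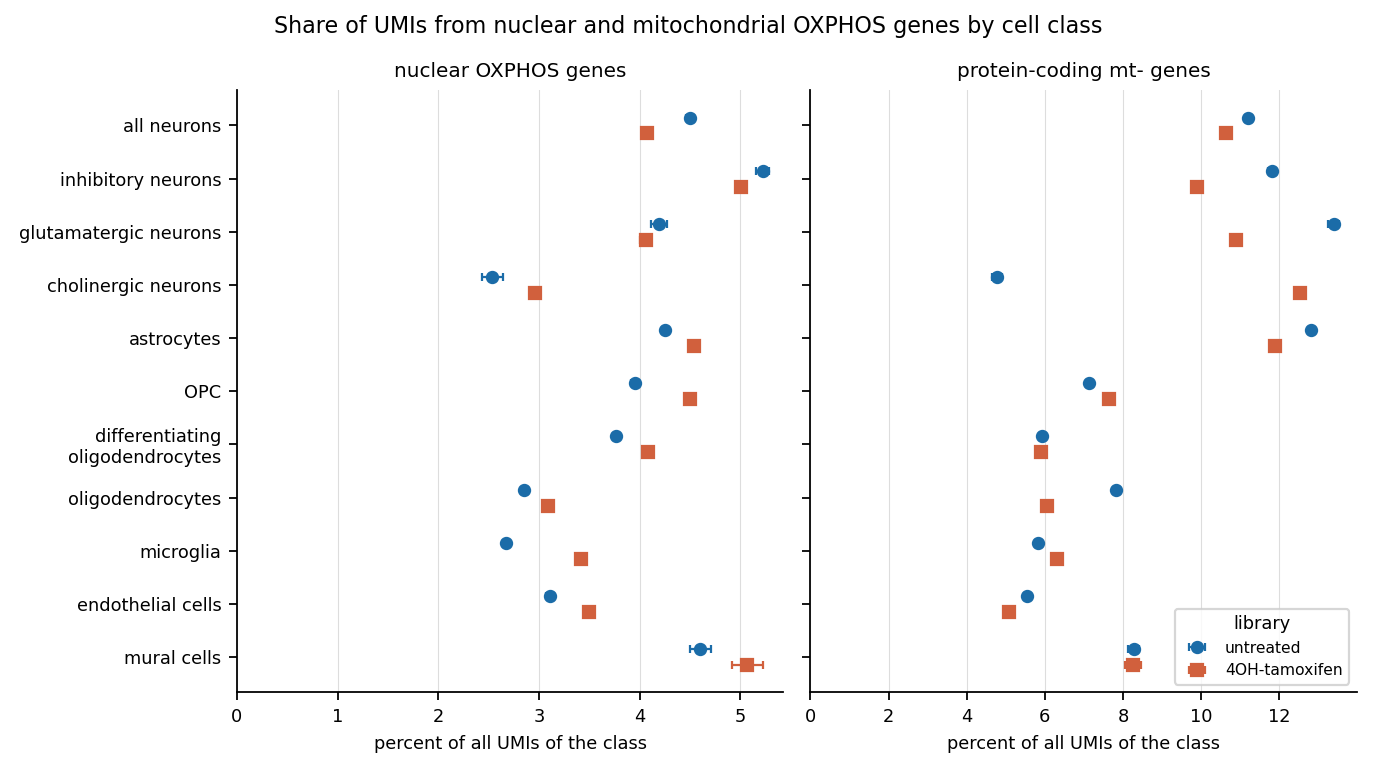
Percent of all UMIs of each cell class that came from the 87 nuclear OXPHOS genes (left) and the 13 protein-coding mt- genes (right), in the untreated (blue circles) and 4OH-tamoxifen library (orange squares), with exact Poisson 95% intervals. Nuclear shares lie between 2.54% in untreated cholinergic neurons and 5.22% in untreated inhibitory neurons.

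The complexes kept similar parts of the sum in all classes. Over the 8 classes and both libraries, complex I subunits made up 28.1% to 34.0% of the nuclear OXPHOS UMIs, complex III 9.40% to 13.7%, complex IV 30.5% to 37.4% and complex V 20.8% to 25.4%. Complex III took the smallest part in neurons, with 9.40% and 10.3%, and 12.7% and 13.7% in astrocytes. The larger differences between classes lay inside the complexes, among their single subunits and isoforms.

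Between the libraries the nuclear share was lower with tamoxifen in all neurons as a sum and higher in the non-neuronal classes, while the neuron classes went both ways. The tamoxifen library had the higher share in each of the 7 non-neuronal classes. Among these microglia differed most, with 1.28 times the untreated share (95% interval 1.26 to 1.30). Neurons had the lower share, with 0.904 times (0.895 to 0.914). Here and below, brackets after a ratio give exact conditional 95% intervals on summed UMIs, which cover counting error only. They hold no spread between cells, mice or libraries and are no test of the conditions. Over the 76 members with at least 20 UMIs in microglia, the median log2 ratio of tamoxifen to untreated was 0.32, beside 0.00 for all genes with as many UMIs, and in neurons it was -0.21, beside -0.03. Neurons of the tamoxifen library included more cholinergic cells, the class with the lowest nuclear share, with 136 of 668 against 19 of 141. By class the ratio was 0.959 (0.945 to 0.973) in inhibitory, 0.969 (0.946 to 0.992) in glutamatergic, 1.16 (1.12 to 1.21) in cholinergic and 1.04 (1.01 to 1.08) in the other neurons, and the part of composition was not tested. Median depth also differed, for instance 4020.5 and 2351 UMIs per microglial cell, and the part of depth in these ratios was not tested.

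Neurons against the other classes. The question of this comparison is which parts of the machinery neurons express more or less of than glia and endothelial cells. As a sum, the module was higher in neurons than in the mean, slightly in the tamoxifen library and more so in the untreated library. The counts of called members stood near the shares of all genes. Most core subunits of complexes I and III and both of the catalytic head of complex V were higher. With TMM scaling, accessory subunits went both ways in complex I and were mostly lower in complex III, and these accessory counts depended on the scaling. The nuclear share of neurons was 1.31 times the equal-weight mean of 6 non-neuronal classes in the untreated and 1.06 times in the tamoxifen library, and the mt- share 1.49 and 1.49 times. That mean of the nuclear share was 3.43% untreated and 3.85% with tamoxifen, and neuron classes lay on both sides of it. Mural cells, too few for this fit, are not in the mean. Their share of 4.60% untreated and 5.07% with tamoxifen lay above that of all neurons, with 4.50% and 4.07%. Inhibitory neurons had 5.22% and 5.01% and cholinergic neurons 2.54% and 2.96%. Each gene was tested with edgeR on UMI sums per class and library, with library as a term, and the Benjamini-Hochberg adjusted p had to be below 0.05 over all 12994 genes tested. Of the 87 members 84 entered the test, and the others, Cox6a2, Cox7b2 and Cox8b, had too few UMIs. In neurons 27 members were higher, beside 36.6% of all genes, and 29 were lower, beside 29.2% of all genes, so members were called about as often as genes at large. Their median log2 fold change was -0.09, beside 0.05 over all genes. These values use TMM scaling, and scaling by library totals alone moved the median of all genes by 0.32 and the split of members to 40 higher and 12 lower. All called members had the same sign in both libraries except Ndufa12, with per-library log2 ratios of 0.57 untreated and -0.01 with tamoxifen.

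In complex I, the core subunits, which bind NADH, carry the iron-sulfur clusters and reduce ubiquinone, were mostly higher in neurons. Of the 7 nuclear core subunits 5 were higher and 0 lower (median log2 fold change 0.77). Ndufs1, the largest iron-sulfur subunit, had 159 CPM in neurons against 50.4 in the non-neuronal mean in the untreated library and 152 against 52.8 in the tamoxifen library (log2 fold change 1.33, SE 0.12, adjusted p = 6.7e-12), where CPM are counts scaled to an equal total of UMIs per class and library. The neuron value of Ndufs1 was more than 2 times the non-neuronal mean in each library. The 29 accessory subunits, which surround the core, went both ways, with 8 higher and 11 lower, and their median of -0.11 turned to 0.23 with library totals, when 14 higher and 4 lower were called. Ndufa11, an accessory subunit of the membrane arm, led the higher ones, with 1031 against 339 CPM untreated and 803 against 342 with tamoxifen (log2 fold change 1.11, SE 0.10, adjusted p = 1.9e-11). In cholinergic neurons its CPM lay below that mean in the untreated library and above it in the tamoxifen library. Ndufa7 led the lower ones, with 273 against 479 CPM untreated and 278 against 581 with tamoxifen (log2 fold change -1.27, SE 0.12, adjusted p = 1.6e-11), and was followed by Ndufb4, with 186 against 279.6 CPM untreated and 162 against 286 with tamoxifen (log2 fold change -1.03, SE 0.12, adjusted p = 2.9e-09).

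The complex I members with the most UMIs over all cells were the accessory subunits Ndufa3, Ndufa2 and Ndufa13, and they did not share a direction in neurons. Ndufa13 was higher (log2 fold change 0.42, SE 0.10, adjusted p = 4.5e-04), Ndufa2 lower (log2 fold change -0.80, SE 0.11, adjusted p = 1.5e-07), and Ndufa3 not called (log2 fold change -0.07, SE 0.11, adjusted p = 0.61), with a value of 0.28 and a call as higher under library totals. Among the assembly factors, which are not part of the finished complex, 4 of 7 were higher and 1 lower. Ndufaf5, which modifies a core subunit during assembly, showed the largest log2 fold change among the called members that were higher in neurons, with 61.4 against 14.2 CPM untreated and 45.6 against 18.0 with tamoxifen (log2 fold change 1.42, SE 0.18, adjusted p = 1.7e-08). Atp5sl, which despite its name acts in the assembly of the complex I membrane arm, had 52.1 against 17.7 CPM untreated and 41.1 against 16.8 with tamoxifen (log2 fold change 1.17, SE 0.17, adjusted p = 4.4e-07).

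Complex III split between its large core proteins and its small subunits. Uqcrc2, a core protein on the matrix side, had 242 against 107 CPM untreated and 217 against 90.7 with tamoxifen (log2 fold change 0.90, SE 0.11, adjusted p = 9.2e-09), and its partner Uqcrc1 449.8 against 187 CPM untreated and 355 against 159 with tamoxifen (log2 fold change 0.90, SE 0.10, adjusted p = 3.2e-09). Both were higher in neurons in each library by about the same measure, while Uqcrfs1, the Rieske iron-sulfur protein, was lower (log2 fold change -0.38, SE 0.12, adjusted p = 0.004), though not called with library totals. Of the 5 small accessory subunits 4 were lower and 0 higher, with a median of -0.47 (-0.13 with library totals, when 2 were lower and 1 was higher). The 3 with the most UMIs, Uqcr11, Uqcr10 and Uqcrq, had log2 fold changes of -0.60, -0.47 and -0.46.

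In complex IV, most subunits were called in neither direction. Of the 16 subunits tested 2 were higher and 5 lower, and the median of -0.21 turned to 0.14 with library totals, when 6 higher and 2 lower were called. The 3 with the most UMIs were Cox8a, Cox4i1 and Cox6c, with log2 fold changes of -0.23, -0.25 and -0.10, of which only that of Cox4i1 was called, and with library totals Cox4i1 turned to 0.10 and was not called while Cox6c turned to 0.25 and was called higher. Ndufa4 stood apart: this subunit, once assigned to complex I, had 2844 CPM in neurons against 925 in the non-neuronal mean in the untreated library and 2296 against 943 in the tamoxifen library (log2 fold change 1.17, SE 0.10, adjusted p = 9.0e-13). In inhibitory neurons it reached 3558 and 3059 CPM, and in microglia 528 and 638. Lower in neurons were Cox7c, a small membrane subunit, with 738 against 1121 CPM untreated and 882 against 1377 with tamoxifen (log2 fold change -0.94, SE 0.11, adjusted p = 5.4e-09), and Cox7a2l, named as a supercomplex factor, with 255 against 393 CPM untreated and 270.3 against 432 with tamoxifen (log2 fold change -0.90, SE 0.12, adjusted p = 5.9e-08).

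In ATP synthase, the catalytic head was higher in neurons, and the other parts had lower subunits or went both ways. Both subunits of the catalytic head were higher in neurons: Atp5b, the subunit that makes ATP, had 1282 against 595 CPM untreated and 1294 against 553 with tamoxifen (log2 fold change 0.88, SE 0.10, adjusted p = 1.5e-09), and Atp5a1, its partner, 735 against 365 CPM untreated and 765 against 342 with tamoxifen (log2 fold change 0.81, SE 0.10, adjusted p = 1.6e-08). The central stalk, which turns inside the head, had 2 of 3 subunits lower, led by Atp5e, with 537 against 742 CPM untreated and 541 against 891 with tamoxifen (log2 fold change -0.92, SE 0.11, adjusted p = 9.1e-09). The small membrane subunits had 2 of 3 lower, among them Atp5l (log2 fold change -0.41, SE 0.11, adjusted p = 0.0011) and Atp5j2 (log2 fold change -0.37, SE 0.11, adjusted p = 0.0035), and with library totals 0 of 3. Of the 4 peripheral stalk subunits 1 was higher and 2 were lower. Over the 15 subunits the median of -0.18 turned to 0.16 with library totals, when 5 higher and 4 lower were called.

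The c-ring, the proton-driven rotor of ATP synthase, holds the member that was lowest in neurons. Its subunit is encoded by 3 genes, Atp5g1, Atp5g2 and Atp5g3, whose products differ in the import peptide that is removed and yield the same mature protein. Atp5g2 had 257 CPM in neurons against 611 in the non-neuronal mean in the untreated library and 211 against 627 in the tamoxifen library (log2 fold change -1.71, SE 0.12, adjusted p = 2.5e-14), the lowest log2 fold change of the 84 members tested. Atp5g1 had 1179.6 against 551 CPM untreated and 1002 against 644 with tamoxifen (log2 fold change 0.57, SE 0.10, adjusted p = 1.2e-05) and Atp5g3 541 against 292 CPM untreated and 569 against 367 with tamoxifen (log2 fold change 0.49, SE 0.10, adjusted p = 9.7e-05), both higher in neurons. As a share of the UMIs of the 3 genes, Atp5g2 made up 13% and 11.8% in neurons, 26.4% and 25.0% in astrocytes, 39.5% and 36.3% in oligodendrocytes, 47.2% and 41.3% in OPC and 52.4% and 46.3% in microglia. Neurons were lowest and microglia highest in both libraries, with astrocytes between neurons and the others. Inhibitory neurons (10.9% and 10.1%), glutamatergic neurons (15.9% and 13.7%) and cholinergic neurons (16.8% and 10.7%) all stood below astrocytes. Atp5g1 made up 59.6% and 56.2% in neurons and 32.5% and 34.5% in microglia. Atp5g3 made up 27.4% and 31.9% in neurons, 30.2% and 33.7% in astrocytes and 15.1% and 19.1% in microglia.

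**Figure D2:**
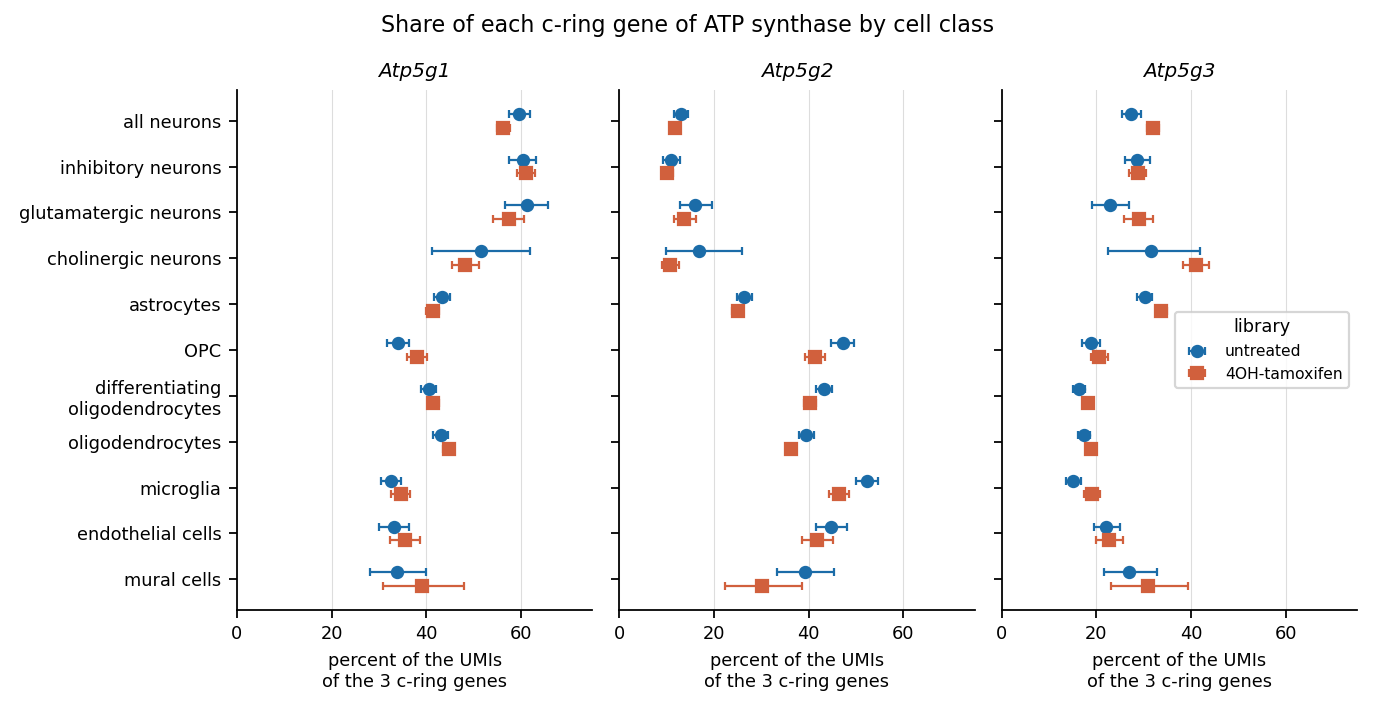
Percent of the UMIs of the 3 c-ring genes that came from each of them, by cell class, in the untreated (blue circles) and 4OH-tamoxifen library (orange squares), with exact Clopper-Pearson 95% intervals. Atp5g2 takes 13% and 11.8% in all neurons and 52.4% and 46.3% in microglia.

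**Figure D3:**
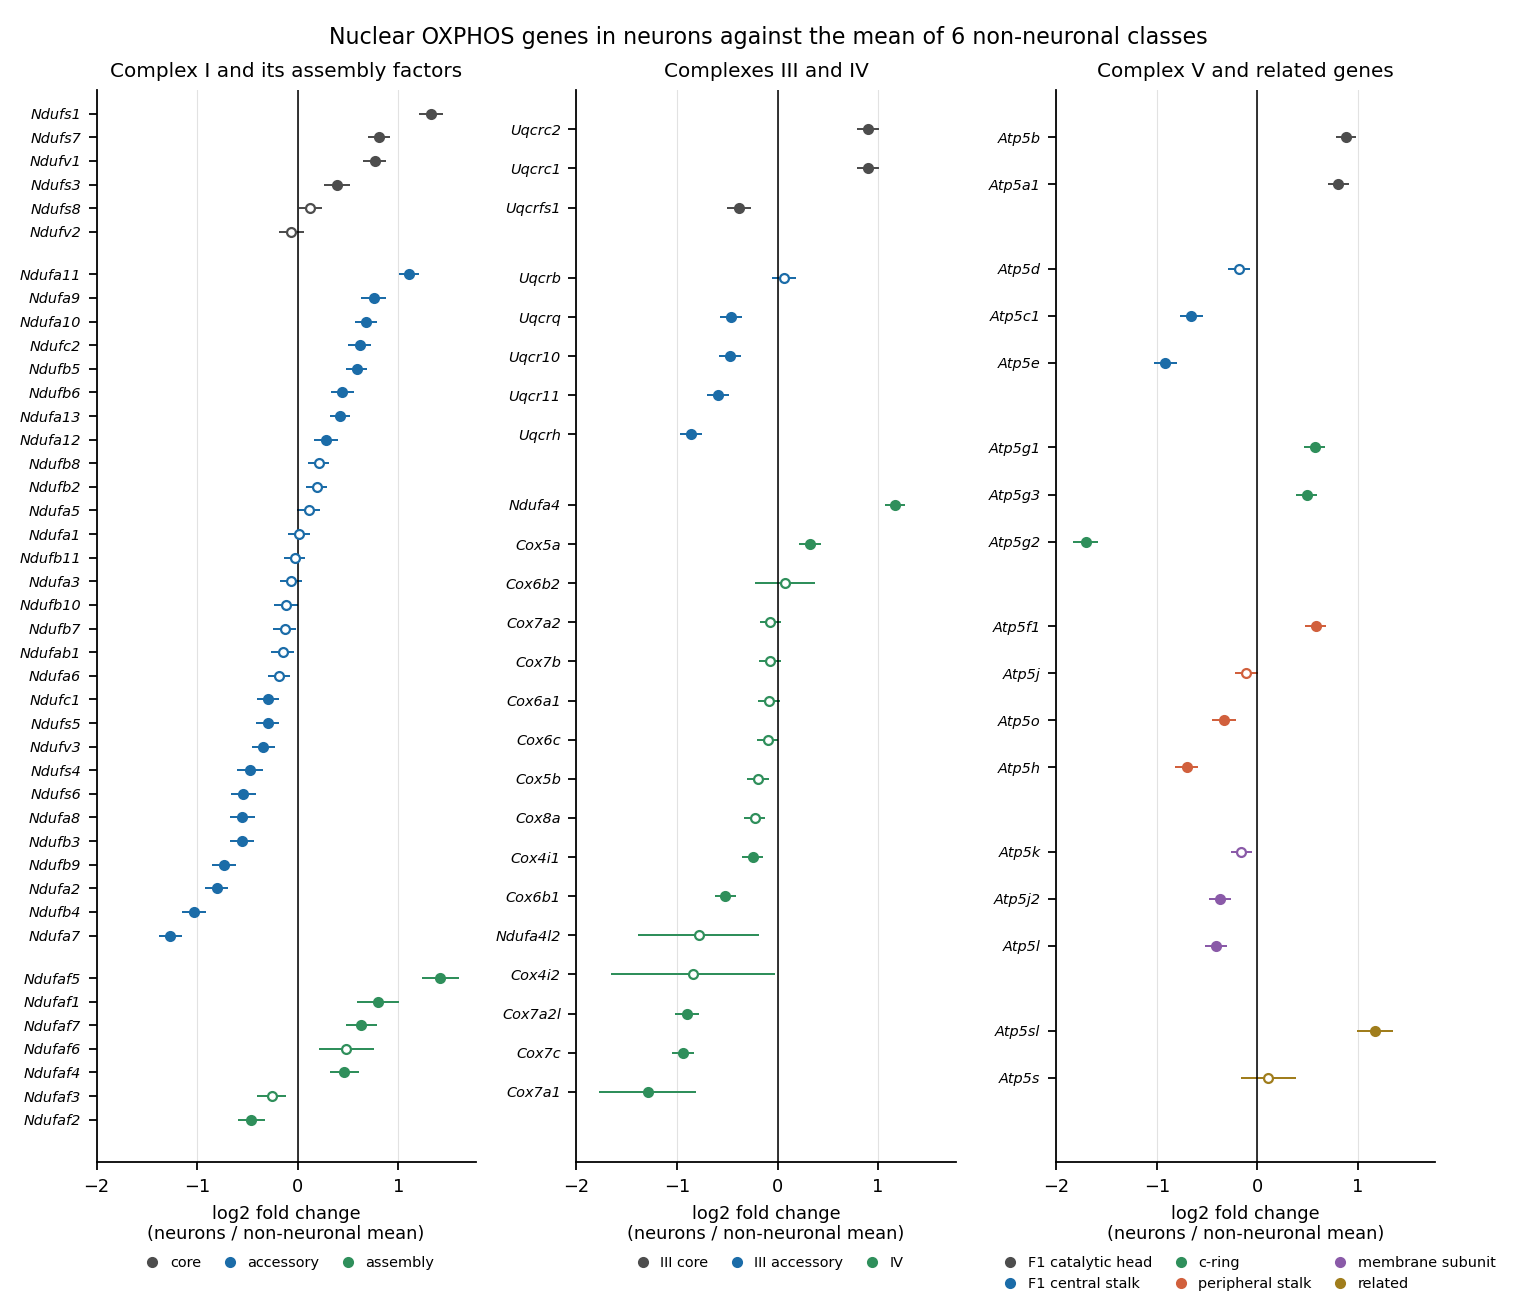
Log2 fold change of members tested in neurons against the mean of 6 non-neuronal classes (edgeR, TMM scaling), with bars of 1 standard error, filled where the adjusted p was below 0.05 and hollow elsewhere. Core subunits of complexes I and III and the catalytic head of complex V lie mostly to the right and Atp5g2 farthest to the left, and with library totals all genes shift by a median of 0.32.

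A property that the choice by name did not use ran along with these differences. Members are short, with a median longest transcript of 1046 bases against 3464 over the genes tested, and the shorter ones among them tended to be lower in neurons. Across the 84 members Spearman's rho between this length and log2 fold change was 0.42, beside 0.23 across 12973 genes. The longest annotated transcript, for instance 6310 bases for Atp5l and 4715 for Atp5g1, need not be the mRNA that was counted. In the other comparisons rho was 0.47 beside 0.16 for neurons against astrocytes, -0.10 beside -0.04 for oligodendrocytes against OPC, -0.06 beside -0.05 for mural against endothelial cells and 0.14 beside 0.14 for cholinergic against inhibitory neurons. Genes are not independent replicates and the values come from the same cells, so this is a description. The members lie on 19 chromosomes, 3 of them on X, with at most 10 on any chromosome.

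Neurons against astrocytes. Astrocytes are the class nearest to neurons in their mt- share, and the comparison asks whether the same subunits set the pair apart. Most members that differed were lower in neurons, while most core subunits of complexes I and III and both of the catalytic head were higher here too. The nuclear share of neurons was 1.06 times that of astrocytes in the untreated and 0.896 times in the tamoxifen library, and the mt- share 0.875 and 0.895 times. In neurons 18 of 84 members were higher, beside 30.3% of all genes, and 43 were lower, beside 27.5% of all genes. Their median log2 fold change was -0.36 over members and 0.04 over all genes. Library totals moved the median of all genes by 0.35 and the split to 25 higher and 19 lower, with a members' median of 0.00. All called members had the same sign in both libraries.

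The complex III split was wider than against all classes: Uqcrc2 had 242 against 118 CPM untreated and 217 against 99.7 with tamoxifen (log2 fold change 0.72, SE 0.15, adjusted p = 1.2e-04), while Uqcr11 had 747 against 1411 CPM untreated and 931 against 1769 with tamoxifen (log2 fold change -1.29, SE 0.14, adjusted p = 6.5e-10) and Uqcr10 647 against 1215 CPM untreated and 797 against 1513 with tamoxifen (log2 fold change -1.29, SE 0.14, adjusted p = 6.2e-10). Both small subunits were nearly 2 times as abundant in astrocytes in each library. In complex IV 11 of 16 subunits were lower in neurons and 1, Ndufa4, was higher (log2 fold change 0.69); Cox7c had 738 against 1391 CPM untreated and 882 against 1533 with tamoxifen (log2 fold change -1.23, SE 0.14, adjusted p = 2.3e-09). In complex I the core subunits had 4 of 7 higher, and the accessory subunits 5 higher, led by Ndufa9 (log2 fold change 0.80, SE 0.16, adjusted p = 8.4e-05), and 16 lower, led by Ndufa7 (log2 fold change -1.18, SE 0.14, adjusted p = 7.0e-09). With library totals these counts were 1 higher and 4 lower in complex IV and 7 higher and 5 lower among the accessory subunits, whose median of -0.35 turned to 0.02. The assembly factors Ndufaf5 (log2 fold change 1.03, SE 0.23, adjusted p = 2.8e-04) and Ndufaf7 (log2 fold change 0.93, SE 0.20, adjusted p = 1.9e-04), which modify core subunits, were higher. In complex V 3 of 15 subunits were higher and 10 lower (4 higher and 5 lower with library totals), Atp5g2 (log2 fold change -1.30, SE 0.14, adjusted p = 1.3e-09) the lowest. Of the 3 c-ring genes 0 were higher and 2 lower, and with library totals 1 was higher and 1 lower.

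The member that set astrocytes apart most is Cox7a1, a complex IV isoform best known from heart and skeletal muscle. It had 26.4 and 27.9 CPM in astrocytes and 4.16 and 3.26 in neurons (log2 fold change -3.36, SE 0.46, adjusted p = 1.1e-07). On the scale of library totals the ratio of neurons to astrocytes was 0.158 (0.0415 to 0.428) in the untreated and 0.117 (0.0542 to 0.225) in the tamoxifen library. The isoform stayed rare even in astrocytes, at 2.71% and 2.46% of the UMIs of the pair with Cox7a2, and at least 1 UMI was found in 6.79% and 5.56% of astrocytes against 2.03% and 1.13% of microglia, which are deeper (4020.5 and 2351 UMIs per cell against 2650.0 and 1971). With each cell thinned to 2000 UMIs the shares were 4.43% and 6.70% of astrocytes and 1.19% and 0.792% of microglia. A pair of further rare isoforms had their highest CPM there too: Cox7b2 had 10 and 36 UMIs in astrocytes and Cox8b 16 and 14, and neither had enough UMIs to be tested in this comparison.

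Oligodendrocytes against OPC. These classes are the ends of the lineage that makes myelin, and the comparison follows the module through differentiation. The summed share was lower in oligodendrocytes, yet gene by gene the answer rests on the scaling, more than in any other comparison. The nuclear share of oligodendrocytes was 0.721 times that of OPC in the untreated and 0.688 times in the tamoxifen library, and the mt- share 1.09 and 0.793 times. The TMM factors were 0.781 and 0.793 in oligodendrocytes and 1.29 and 1.24 in OPC, so the fold changes below stand above the ratios of CPM printed with them. On that scale 18 of 84 members were higher in oligodendrocytes, beside 24.8% of all genes, and 7 lower, beside 24.5% of all genes, with a median of 0.14 over members and -0.01 over all genes. With library totals the median of all genes moved by -0.68, 0 members were higher and 61 lower, and the members' median was -0.54, beside -0.68 over all genes. DESeq2, with its own size factors, called 14 higher and 9 lower.

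A scaling factor moves all genes of a class alike, so the place of a subunit among the others rests on it far less than its sign. Ndufa3, an accessory subunit of complex I, had 808 CPM in oligodendrocytes against 631 in OPC in the untreated library and 862 against 757 in the tamoxifen library (log2 fold change 0.95, SE 0.14, adjusted p = 5.2e-07), and the assembly chaperone Ndufaf2 170.3 against 133 CPM untreated and 179.9 against 149.8 with tamoxifen (log2 fold change 0.99, SE 0.16, adjusted p = 3.3e-06). Further complex I members on that side were Ndufs6 (log2 fold change 0.82, SE 0.15, adjusted p = 3.3e-05), Ndufv3 (log2 fold change 0.78, SE 0.15, adjusted p = 4.0e-05) and the core subunit Ndufs7 (log2 fold change 0.65, SE 0.16, adjusted p = 7.3e-04), the last with -0.03 under library totals. Ndufa3 and Ndufaf2 were higher in CPM as well in each library. At the other end, Ndufa1, a small membrane subunit encoded on the X chromosome, had 135 against 344 CPM untreated and 157 against 349.6 with tamoxifen (log2 fold change -0.57, SE 0.15, adjusted p = 0.0016), Ndufa5 175 against 395 CPM untreated and 195 against 448 with tamoxifen (log2 fold change -0.51, SE 0.15, adjusted p = 0.0042) and Cox7b 277 against 548 CPM untreated and 333 against 689 with tamoxifen (log2 fold change -0.34, SE 0.14, adjusted p = 0.047). The head of ATP synthase was lower, with 202 against 459 CPM untreated and 197 against 441 with tamoxifen for Atp5a1 (log2 fold change -0.49, SE 0.14, adjusted p = 0.0045) and 350.5 against 782 CPM untreated and 322 against 629 with tamoxifen for Atp5b (log2 fold change -0.38, SE 0.14, adjusted p = 0.024), and so was Atp5c1 of the central stalk (log2 fold change -0.39, SE 0.14, adjusted p = 0.021). The subunits of the head were thus lower in oligodendrocytes than in OPC and higher in neurons than in the non-neuronal mean. Both held with TMM, with library totals and with DESeq2.

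Mural against endothelial cells. The vascular pair shows how far isoforms can set apart neighbouring cells. Mural cells used isoforms of complex IV that were rare in the other classes, on top of a higher share of the whole module. The nuclear share of mural cells was 1.48 times that of endothelial cells in the untreated and 1.45 times in the tamoxifen library, and the mt- share 1.49 and 1.62 times. With 69 and 47 mural cells, 6 of 85 members were higher in them, beside 5.30% of all genes, and 3 lower, beside 8.13% of all genes. The median was 0.19 over members and -0.19 over all genes. With library totals the median of all genes moved by 0.27 and 29 members were higher and 1 lower, and with DESeq2 it moved by 0.17 and 25 were higher and 3 lower.

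Cox4i2 (ENSMUSG00000009876, chr2:152754173-152765037 of GRCm38) is the alternative form of Cox4i1, the largest nuclear subunit of complex IV, and is known from lung and oxygen-sensing cells. It had 1085 CPM in mural against 15.8 in endothelial cells in the untreated library and 734 against 18.9 in the tamoxifen library (log2 fold change 5.44, SE 0.32, adjusted p = 8.0e-22), a ratio of 68.7 (39.2 to 132) and 38.8 (21.4 to 75.2). Cox4i2 made up 33.8% and 24.5% of the UMIs of the pair in mural cells and 1.16% and 1.22% in endothelial cells, and Cox4i1 itself was not called, with 2122 against 1350.1 CPM untreated and 2262 against 1528 with tamoxifen (log2 fold change 0.32, SE 0.20, adjusted p = 0.38). Ndufa4l2 (ENSMUSG00000040280, chr10:127514967-127517154), a paralog of Ndufa4, had 1597 against 32.8 CPM untreated and 1321 against 40.5 with tamoxifen (log2 fold change 5.03, SE 0.28, adjusted p = 2.5e-23), a ratio of 48.7 (32.7 to 75.3) and 32.6 (21.6 to 50.6). Here the partner was lower in mural cells: Ndufa4 had 369.6 against 847 CPM untreated and 526 against 845 with tamoxifen (log2 fold change -1.25, SE 0.25, adjusted p = 9.2e-05), so that Ndufa4l2 made up 81.2% and 71.5% of that pair in mural and 3.72% and 4.57% in endothelial cells. Mural cells therefore had more Cox4i2 with no call for Cox4i1, and more Ndufa4l2 with less Ndufa4.

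Cell by cell, at least 1 UMI of Cox4i2 was found in 85.5% and 70.2% of mural cells and of Ndufa4l2 in 94.2% and 89.4%. Microglia, deeper at 4020.5 and 2351 UMIs per cell against 2316 and 1710.0, had 1.74% and 0.940% for Cox4i2 and 0.291% and 0.752% for Ndufa4l2. In the cells with enough UMIs to be thinned to 2000, 54 and 7 mural cells, Cox4i2 was found in 87.0% and 85.7% and Ndufa4l2 in 90.7% and 85.7%. In endothelial cells the shares were 5.20% and 5.86% for Cox4i2 and 10.4% and 10.4% for Ndufa4l2, so these isoforms were found in most mural cells and few of their neighbours.

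The other members called in this pair differed less or had few UMIs. Cox8a, the smallest complex IV subunit, had 2343 against 973 CPM untreated and 2959 against 1441 with tamoxifen (log2 fold change 0.85, SE 0.21, adjusted p = 0.0016), and the complex I subunits Ndufs7 (log2 fold change 1.03, SE 0.28, adjusted p = 0.0051) and Ndufb2 (log2 fold change 0.65, SE 0.23, adjusted p = 0.043) were also higher in mural cells. Cox7a2l (log2 fold change -0.94, SE 0.25, adjusted p = 0.0053) and Ndufa7 (log2 fold change -0.71, SE 0.23, adjusted p = 0.03) were lower, and at DESeq2's scaling and with library totals the members called lower numbered 3 and 1. Cox6b2, an isoform known from testis, passed the test (log2 fold change 2.51, SE 0.88, adjusted p = 0.046) on 6 and 3 UMIs in mural against 1 and 7 in endothelial cells, with ratios of 29.5 (3.57 to 1355) and 3.88 (0.648 to 17.0).

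**Figure D4:**
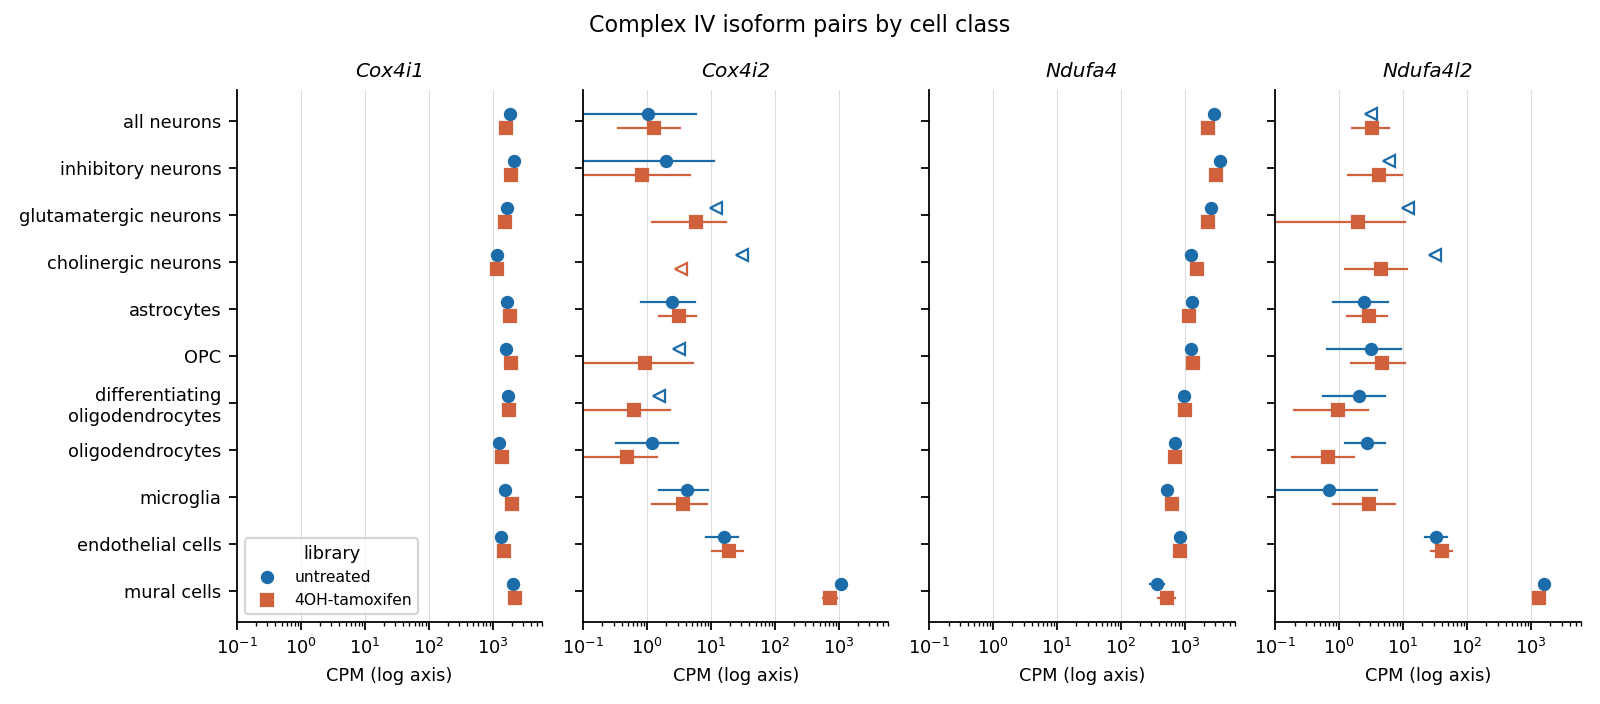
CPM (log axis) of Cox4i1, Cox4i2, Ndufa4 and Ndufa4l2 by cell class in the untreated (blue circles) and 4OH-tamoxifen library (orange squares), with exact Poisson 95% intervals, open triangles marking the limit of 3 counts where a class had 0. In mural cells Cox4i2 reaches 1085 and 734 CPM and Ndufa4l2 1597 and 1321, and either isoform has at most 40.5 in endothelial cells.

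Cholinergic against inhibitory neurons. Neuron classes differ in their nuclear share as much as neurons and glia do, and this pair spans their range. Most of the module was lower in cholinergic neurons, in every complex and in both libraries. The nuclear share of cholinergic neurons was 0.486 times that of inhibitory neurons in the untreated library, with 19 cholinergic cells, and 0.591 times in the tamoxifen library, with 136. Of 85 members tested 68 were lower, beside 11.0% of all genes, and 0 higher, beside 7.63% of all genes, by edgeR at an adjusted p below 0.05. At an unadjusted p below 0.05 1 was higher, by DESeq2 1, and with library totals 1. The median was -0.97 over members and -0.06 over all genes, and library totals and DESeq2, which moved the median of all genes by 0.11 and 0.21, left 59 and 58 members lower. All called members had the same sign in both libraries.

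The deficit ran through the complexes, with 33 of 36 complex I subunits, 7 of 8 of complex III, 13 of 17 of complex IV and 14 of 15 of complex V lower. Among members well covered in both libraries it was led by Atp5j, a peripheral stalk subunit of ATP synthase, with 332 CPM in cholinergic against 1118 in inhibitory neurons in the untreated library and 343 against 942 in the tamoxifen library (log2 fold change -1.76, SE 0.22, adjusted p = 6.0e-09). Next came the complex I accessory subunits Ndufa11, with 269.6 against 1299 CPM untreated and 488 against 1065 with tamoxifen (log2 fold change -1.64, SE 0.25, adjusted p = 4.2e-07), Ndufa12 (log2 fold change -1.57, SE 0.24, adjusted p = 6.2e-07) and Ndufb6 (log2 fold change -1.49, SE 0.23, adjusted p = 1.4e-06), and Uqcrb of complex III, with 342 against 839 CPM untreated and 230.2 against 539 with tamoxifen (log2 fold change -1.48, SE 0.22, adjusted p = 3.7e-07). Each of these was lower by more than 1.5-fold in both libraries. Ndufa4 had 1265 against 3558 CPM untreated and 1559.8 against 3059 with tamoxifen (log2 fold change -1.42, SE 0.21, adjusted p = 3.7e-07) and 1294 and 1159 CPM in astrocytes. Cox6b2 had 0 UMIs in untreated cholinergic neurons against 47.6 CPM in inhibitory neurons, at least 1.53-fold lower when set at a limit of 3 counts, and 1 UMI in the tamoxifen library, a ratio of 0.0368 (9.06e-04 to 0.218). Of the assembly factors, which had few UMIs, 1 of 7 was lower, Ndufaf5, with a median of -0.07 that turned to 0.06 with library totals and 0.14 with DESeq2.

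Other values of the cholinergic class differed between the libraries. Its mt- share was 4.77% and 12.5%, and Malat1 had 81904 and 27872 CPM, against 17701 and 22203 in inhibitory neurons. Cell by cell, the lower and upper quartiles of the mt- share were 3.22% and 5.76% untreated and 4.48% and 15.6% with tamoxifen. The tamoxifen cells thus varied widely, and their lower quartile lay within the untreated range. With mt- and Malat1 UMIs left out of the total, the nuclear share was 2.92% and 3.49% in cholinergic neurons, 6.04% and 5.70% in inhibitory and 4.96% and 4.68% in glutamatergic neurons.

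In the remaining isoform pairs of complex IV, the other form gave a small part of the UMIs in every class. Cox6b2 reached 4.07% and 1.45% of the pair with Cox6b1 in oligodendrocytes, 2.32% and 2.77% in differentiating oligodendrocytes and 4.17% and 2.51% in inhibitory neurons. Cox6a2, the muscle form of Cox6a1, had at most 0.743% of its pair, in untreated microglia, a class in which this form is not known to act. Cox7b2 had at most 1.75% of its pair with Cox7b and Cox8b at most 0.337% of its pair with Cox8a, both in astrocytes. Cox8c had 0 UMIs in both libraries.

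The subunits encoded in the mitochondrion are given here gene by gene for each comparison. Of the 13 mt- genes 6 were higher in neurons than in the non-neuronal mean and 0 lower (median 0.25), beside 36.6% and 29.2% of all genes, and with library totals 12 were higher (median 0.58). They were mt-Nd1 (log2 fold change 0.67, SE 0.10, adjusted p = 7.8e-07), mt-Nd6 (log2 fold change 0.55, SE 0.19, adjusted p = 0.011), mt-Co3 (log2 fold change 0.43, SE 0.10, adjusted p = 5.4e-04), mt-Nd3 (log2 fold change 0.35), mt-Cytb (0.28) and mt-Atp6 (0.27). The other 7 were mt-Nd2 (0.11), mt-Co1 (0.03), mt-Co2 (0.15), mt-Atp8 (-0.16), mt-Nd4l (0.25), mt-Nd4 (0.18) and mt-Nd5 (0.07). These calls depend on the limit of 20% mt- UMIs per cell: at a limit of 10% none of the 13 was called higher, and mt-Co1 (-0.48, adjusted p = 1.2e-05), mt-Co2 (-0.27, adjusted p = 0.014) and mt-Cytb (-0.24, adjusted p = 0.026) were called lower. At that limit mt-Co3 had -0.03, mt-Nd3 -0.08 and mt-Atp6 -0.15, none of them called. Against astrocytes 11 were lower in neurons, from -0.85 for mt-Nd2 to -0.44 for mt-Nd3, and mt-Nd1 and mt-Nd6 were not called, while library totals left 4 lower. In oligodendrocytes against OPC 11 were higher, led by mt-Atp6 (log2 fold change 0.79, SE 0.14, adjusted p = 2.2e-05), but with library totals 0 were higher and 1 lower. Between mural and endothelial cells 0 were called higher and 0 lower by edgeR, with 0 higher at an unadjusted p below 0.05, 0 by DESeq2 and 6 with library totals. In cholinergic against inhibitory neurons 4 were lower, mt-Nd2 (-0.81), mt-Nd4 (-0.80), mt-Nd1 (-0.73) and mt-Nd5 (-0.67), and DESeq2 called 0. These calls rest on the untreated library, with its 19 cholinergic cells: untreated and tamoxifen log2 ratios were -2.18 and -0.05 for mt-Nd2, -1.76 and -0.14 for mt-Nd4, -1.95 and 0.04 for mt-Nd1 and -1.79 and -0.21 for mt-Nd5.

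Of 6 lists of genes that feed or serve the pathway, the tricarboxylic acid cycle and glycolysis were mostly higher in neurons and the other 4 went both ways with TMM scaling. Over all genes 36.6% were higher and 29.2% lower. In neurons against the non-neuronal mean, the tricarboxylic acid cycle had 15 higher and 2 lower of 18 tested genes (median 1.08), led by Idh3a (1.89), of the NAD-linked isocitrate dehydrogenase, and Pdhb (1.80), of pyruvate dehydrogenase, with Suclg2 (-2.01) and Pcx (-0.46) on the lower side. Glycolysis and its transporters had 16 higher and 3 lower of 21 (median 0.98), with the neuronal enolase Eno2 (4.28) and glucose transporter Slc2a3 (4.22) highest and Hk2 (-2.35) and the lactate transporter Slc16a1 (-1.46) lowest. Biogenesis regulators had 5 higher and 2 lower of 12 (median 0.17), the coactivators Ppargc1b (3.32) and Ppargc1a (2.81) up and the transcription factors Gabpa (-1.14) and Nrf1 (-0.80) down. Assembly factors outside the naming rule had 14 higher and 12 lower of 39 (median 0.18), with Atpaf2 (1.34) and Uqcc1 (1.32) against Cox16 (-1.90) and Coa4 (-1.75). Complex II and cytochrome c had 3 higher and 2 lower of 6 (median 0.19), Sdha (1.29) and Cyc1 (1.11), the cytochrome c1 of complex III that the naming rule leaves out, against Sdhb (-0.48) and Sdhc (-0.31), the last 0.03 with library totals. Carriers and outer membrane proteins had 5 higher and 4 lower of 13 (median 0.09), Vdac1 (1.27) and Chchd10 (1.12) against Timm13 (-1.23) and Tomm7 (-0.91). With library totals the counts were 15 higher and 1 lower for the cycle, 17 higher and 3 lower for glycolysis, 6 higher and 1 lower for biogenesis regulators, 20 higher and 6 lower for assembly factors (median 0.51), 4 higher and 0 lower for complex II and cytochrome c, and 7 higher and 3 lower for carriers.

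Values of some lists in the other comparisons stand here beside those of the module, with no test of a difference. Over all genes 7.63% were higher and 11.0% lower in cholinergic against inhibitory neurons, 24.8% and 24.5% in oligodendrocytes against OPC, and 30.3% and 27.5% in neurons against astrocytes. In cholinergic against inhibitory neurons, where 68 of 85 members were lower, the tricarboxylic acid cycle had 0 higher and 4 lower of 18 (median -0.13, turning to 0.11 by DESeq2), and glycolysis 0 higher and 9 lower of 20 (median -0.60). In oligodendrocytes against OPC the cycle had 3 higher and 8 lower of 18 (median -0.32) and the biogenesis regulators 0 higher and 4 lower of 12 (median -0.43), beside a members' median of 0.14, and with library totals the medians were -1.0, -1.10 and -0.54. In neurons against astrocytes the cycle had 10 higher and 5 lower of 18 (median 0.47), beside -0.36 over members, and with library totals 12 higher and 2 lower (median 0.83), beside 0.00 over members.

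Promoters. Reference promoters, 250 bases before to 50 after each start, were at hand for 70 of the 87 members (RefSeq, GRCm38.p6) and 27025 genes in all. They were searched on both strands for 4 short motifs. GCGCATGCG, the core that the factor NRF1 binds, was found in 10 members (14.3%) against 1.95% of all genes and 1.75% of all promoters. CCGGAAG, an ETS core as bound by GABP, was found in 15 members (21.4%) against 9.93% of all genes and 8.86% of all promoters, and AAGATGGCG, a YY1 core, in 7 members (10.0%) against 1.64% of all genes and 1.40% of all promoters. ACGTG, the hypoxia response core, was found in 16 members (22.9%) against 21.8% of all genes and 19.6% of all promoters. The first 3 motifs were thus more frequent among members than among genes at large, and the last was about as frequent. A match describes the letters and is not a binding site, and no test was made.

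Promoters of the 3 c-ring genes are shown because their mRNAs yield the same mature protein and differed between classes, and those of Ndufa11 and Uqcr11 because both hold the NRF1 core but lay on opposite sides in neurons. Capitals mark the NRF1, ETS and YY1 cores on either strand, overlapping matches merged, and the short hypoxia core is not marked.
Atp5g1, chr11:96075582-96075881, minus strand: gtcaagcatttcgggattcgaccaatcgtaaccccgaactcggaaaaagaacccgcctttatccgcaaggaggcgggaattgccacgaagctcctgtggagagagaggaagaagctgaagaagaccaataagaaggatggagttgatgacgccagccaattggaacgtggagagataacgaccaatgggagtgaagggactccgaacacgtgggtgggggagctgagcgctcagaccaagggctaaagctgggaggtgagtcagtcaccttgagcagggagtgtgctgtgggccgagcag
Atp5g2, chr15:102670998-102671297, minus strand: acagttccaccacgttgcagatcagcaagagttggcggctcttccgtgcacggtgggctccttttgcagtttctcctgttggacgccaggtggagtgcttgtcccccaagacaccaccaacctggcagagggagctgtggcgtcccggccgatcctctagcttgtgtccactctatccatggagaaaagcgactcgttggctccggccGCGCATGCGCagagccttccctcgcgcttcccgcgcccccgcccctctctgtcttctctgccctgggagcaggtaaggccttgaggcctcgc
Atp5g3, chr2:73911277-73911576, minus strand: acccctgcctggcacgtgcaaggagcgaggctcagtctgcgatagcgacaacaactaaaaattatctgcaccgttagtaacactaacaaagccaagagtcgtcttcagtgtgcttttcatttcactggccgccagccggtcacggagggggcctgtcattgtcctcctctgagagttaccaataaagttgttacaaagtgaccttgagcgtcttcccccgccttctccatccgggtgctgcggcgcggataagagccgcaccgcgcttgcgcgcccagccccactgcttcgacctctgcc
Ndufa11, chr17:56717512-56717811, plus strand: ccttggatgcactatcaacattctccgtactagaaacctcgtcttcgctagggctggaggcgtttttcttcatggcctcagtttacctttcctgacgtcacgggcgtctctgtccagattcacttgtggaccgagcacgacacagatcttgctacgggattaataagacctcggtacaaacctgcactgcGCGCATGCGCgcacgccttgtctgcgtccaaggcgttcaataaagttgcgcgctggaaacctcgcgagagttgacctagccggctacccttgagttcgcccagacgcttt
Uqcr11, chr10:80406772-80407071, minus strand: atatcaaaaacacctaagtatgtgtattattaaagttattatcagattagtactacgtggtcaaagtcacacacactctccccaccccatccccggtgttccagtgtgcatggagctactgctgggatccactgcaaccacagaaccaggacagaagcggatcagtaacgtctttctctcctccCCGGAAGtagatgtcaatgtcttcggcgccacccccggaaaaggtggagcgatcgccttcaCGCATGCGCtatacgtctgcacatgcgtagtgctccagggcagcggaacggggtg
Of the c-ring genes, Atp5g2 holds the NRF1 core, in a palindrome that reads on both strands, and no marked core is found in the windows of Atp5g1 and Atp5g3.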

How the data were processed

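Single-cell RNA was measured in 2 libraries, 1 per condition. The authors sequenced them, and by the submitters' processing notes converted reads with bcl2fastq 2.18.0.12 and counted them with Cell Ranger 2.2.0 on mm10; the deposited value is a count of UMIs per gene and barcode. Depth was 18496942 UMIs in the untreated and 34704167 in the tamoxifen library. Scrublet (scanpy 1.11.5) marked 6 barcodes as doublets in the untreated and 544 in the tamoxifen library, so next to none were removed from the first, and cells needed at least 800 genes, at most 50 hemoglobin UMIs and at most 20% mt- UMIs. A cell joined the class with the most detected markers, at least 3 and at least 2 times those of any class of another lineage. UMIs were summed per class and library. Genes were tested with edgeR 4.0.16 (TMM, quasi-likelihood) on classes plus library, with classes of at least 50 cells in each library; for mural and cholinergic cells, which fell short in 1 library, a separate fit with a minimum of 15 cells, which also held fibroblasts, was added after the cell numbers were seen. DESeq2 1.42.0 was an alternative, beside other scalings, doublet, gene, mt- and marker limits, thinning to 2000 UMIs, and leaving out each library. The edgeR fit was tested on simulated counts for the comparison of neurons with the non-neuronal mean.

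Named members are those of the isoform pairs, the 6 called members with the largest fold change in each direction per comparison (same sign in both libraries, at least 20 CPM in the higher class), and the 3 with the most UMIs per complex. From each of 6 gene lists (complex II and cytochrome c, assembly factors, tricarboxylic acid cycle, glycolysis, biogenesis regulators, carriers) the 2 largest called changes in each direction are named, and all 13 mt- genes. Uqcrc1 and Uqcrfs1 were named after their values were seen, and the values of 1 member are not reported here. Members and lists were chosen with earlier results of these data known. UMIs are counted at the 3' end and not scaled by length, so levels are compared between classes; shares within isoform pairs and the c-ring set genes with unlike 3' ends side by side and are read across classes. Many members have processed pseudogenes with near-identical sequence. How reads shared with them were counted was not examined, which makes the levels of these members uncertain. CPM are printed on library totals. Per-library log2 ratios used a prior count of 0.5.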

Additional observations from a re-analysis of the deposited data

Results flagged for a closer look

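In some results the libraries lay on opposite sides of equality, and none of these differences between libraries was tested, since each condition has 1 library. The nuclear OXPHOS share of neurons was 1.06 times that of astrocytes in the untreated and 0.896 times in the tamoxifen library, and 1.04 and 0.884 times when mt- UMIs were left out of the totals. With Malat1 left out as well both libraries lay on the same side, at 5.23% and 4.69% in neurons against 5.48% and 5.78% in astrocytes. The mt- share of oligodendrocytes was 1.09 and 0.793 times that of OPC. On the TMM scale Cox6b2 was 2.53 times its OPC level in untreated and 0.545 times in tamoxifen oligodendrocytes.

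Cholinergic neurons differed most between the libraries in mt- mRNA. Their mt- share was 0.404 times that of inhibitory neurons in the untreated library, with 19 cholinergic cells, and 1.27 times in the tamoxifen library, with 136. These are pooled values, and single tamoxifen cells varied widely, with quartiles of 4.48% and 15.6%. Of the 13 mt- genes 8 took opposite sides, with untreated and tamoxifen ratios on the TMM scale for mt-Nd1 0.259 and 1.03, mt-Co1 0.326 and 1.49, mt-Co2 0.311 and 1.21, mt-Atp6 0.323 and 1.41, mt-Co3 0.274 and 1.19, mt-Nd3 0.287 and 1.10, mt-Nd4l 0.558 and 1.19 and mt-Cytb 0.280 and 1.11. Malat1 moved the other way in the same cells, at 81904 and 27872 CPM, and its part was not tested.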

How the results depend on the processing

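Counts of called members moved by over 1.5 times mainly with library totals alone. They gave 12 lower in neurons against the non-neuronal mean and 19 lower against astrocytes, 0 higher and 61 lower in oligodendrocytes against OPC, 29 higher and 1 lower in mural cells, and 1 higher in cholinergic neurons. In oligodendrocytes, the stricter gate gave 11 higher, thinning 10 higher, and a limit of 10% mt- UMIs 11 lower. DESeq2 gave 25 higher in mural and 1 higher in cholinergic cells. The mt- share of neurons over the non-neuronal mean, 1.49 as reported, was 1.49 with doublets taken at 0.8% per 1000 barcodes, 1.58 with at least 1200 genes, 1.15 at a limit of 10% mt- UMIs, 1.64 with no limit, 1.45 with the stricter gate, 1.35 thinned and 1.29 as a mean of the cells' own percent. The cause was not tested. With 1 library left out, and so with no test, the nuclear share of neurons over the non-neuronal mean was 1.06 to 1.31, their mt- share 1.49 to 1.49, and the nuclear share of cholinergic over inhibitory neurons 0.486 to 0.591. Signs turned with library totals for Ndufs7 in oligodendrocytes against OPC (-0.0309), and in neurons against the non-neuronal mean for Sdhc (0.0276), Ndufa3 (0.28), Cox4i1 (0.10), Cox6c (0.25), Cox6a1 (0.26), Cox7a2 (0.28) and Cox7b (0.27). At a limit of 10% mt- UMIs they turned in the same comparison for mt-Co1 (-0.48), mt-Co2 (-0.27), mt-Atp6 (-0.15), mt-Co3 (-0.0281), mt-Nd3 (-0.0788) and mt-Cytb (-0.24). Over the named genes, 1284 other values kept their direction and side of the threshold, 61 lost and 20 gained the call. Classes were compared with library as a term, but for the conditions no paired analysis was possible because each has 1 library and both carry replicate number 1. Mural cells could not be fitted with at least 1200 genes or thinned, nor cholinergic neurons with the stricter gate, for want of cells. Tests rest on 2 sums per class, small classes limit the smallest differences that can be called, and rare isoforms were at the limit of depth.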

Other observations

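The vascular pair also differed in genes that go with the module, chosen here after their values were seen. Higd1b, of a family of proteins that sit with complexes III and IV, had 3189 against 32.8 CPM untreated and 2690.0 against 51.3 with tamoxifen in mural against endothelial cells (log2 fold change 5.83). The NADP-linked isocitrate dehydrogenase Idh2 (1.66) and Suclg2 (1.48) were higher in mural cells as well. Endothelial cells held the transporters of the barrier: Slc2a1, for glucose, had 29.8 against 676 CPM untreated and 12.2 against 728 with tamoxifen, on 5 and 1 UMIs in mural cells, a ratio of 0.0441 (0.0143 to 0.103) and 0.0168 (4.25e-04 to 0.0940), and Slc16a1, for lactate, had 17.9 against 1527 CPM untreated and 0 UMIs against 971 CPM with tamoxifen, at least 26.5-fold lower in mural cells when set at a limit of 3 counts.

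In cholinergic against inhibitory neurons, the ATP synthase assembly factor Atpaf2 had 41.5 against 21.8 CPM untreated and 133 against 18.3 with tamoxifen (log2 fold change 2.43) and the mitochondrial DNA polymerase Polg 93.3 against 13.9 CPM untreated and 50.8 against 22.4 with tamoxifen (log2 fold change 1.38), on 4 and 9 UMIs in the 19 untreated cholinergic cells. Barcodes removed for more than 20% mt- UMIs, 303 in the untreated and 415 in the tamoxifen library, had 4.56% and 4.42% of their UMIs from nuclear OXPHOS genes, against 3.53% and 3.82% in the cells that were kept.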
